A study of Mus musculus with 2 samples.

Results

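The 9 genes described here carry out the presentation of cell-internal peptides on MHC class I, and they were taken by name from the 31053 genes of the deposited feature table. They are the heavy chains H2-K1 and H2-D1, the light chain B2m, the peptide transporter subunits Tap1 and Tap2, the loading factor Tapbp, and the inducible proteasome subunits Psmb8, Psmb9 and Psmb10. Their levels were read in endocrine, endothelial and immune cells of mouse pancreatic islets. The islets came from male C57/B6 mice aged 16 weeks, with 4 mice pooled in each of 2 single-cell RNA libraries. One library was labelled wild-type (WT), whose diet the labels leave unnamed. The other, labelled high fat diet-fed (HFD), came from mice given a diet with 60% of its calories as fat for 10 weeks from 6 weeks of age. Dead cells were depleted with a kit before capture, and the study used these libraries to ask how islet cell states change in obesity.

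Class I molecules display short peptides from the cell's own proteins to CD8 T cells. The proteasome cuts proteins into peptides, Tap1 and Tap2 carry them into the endoplasmic reticulum, Tapbp holds the empty heavy chain beside the transporter, and B2m pairs with the heavy chain before the complex reaches the cell surface. Interferons raise most of these genes, and class I on β cells is well known from the study of autoimmune diabetes.

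With 1 library in each group there was no replicate check and no test of diet. Intervals are exact 95% intervals that cover counting error only, and they say nothing of the spread between mice. Levels are unique molecular identifiers (UMIs, one per captured transcript) scaled to a total of 1000000 UMIs in the same cells (CPM). Because the 3′ assay tags each transcript once, levels of different genes can be set side by side on this scale without a length correction. A gene was counted as past the fold rule if its HFD to WT ratio was at least 1.5 or at most the inverse of 1.5, its interval left out 1, and it had at least 20 UMIs over both libraries.

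After filters the WT library held 2493 cells with a median of 23997 UMIs, and the HFD library 6673 cells with a median of 10925 UMIs. Endocrine cells numbered 2126 in WT and 6206 in HFD, and most of them were β-like (2004 and 5852). Endothelial-like cells numbered 113 and 124. Immune cells numbered 55 and 244, a difference made up mainly of T-like cells, with 1 in WT and 158 in HFD, while macrophage-like cells numbered 40 and 45. The names rest on marker lists, and all 8 endothelial markers were detected in endothelial-like cells of both libraries. The barcode lists of the libraries had 9 barcodes in common.

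Positions are those of the GENCODE annotation of GRCm38. H2-K1 occupies chr17:33996017-34000347 on the minus strand and H2-D1 chr17:35262730-35267499 on the plus strand. Psmb9 (chr17:34181987-34187764, minus), Tap1 (chr17:34187553-34197225, plus), Psmb8 (chr17:34197721-34201454, plus) and Tap2 (chr17:34203527-34216321, plus) form one block, in which the 5′ ends of Psmb9 and Tap1 overlap on opposite strands. Tapbp is at chr17:33915899-33929292 (plus), B2m at chr2:122147686-122153083 (plus) and Psmb10 at chr8:105935735-105938444 (minus). Heavy chain genes are close paralogs, so reads could be lost or split between H2-K1, H2-D1 and the H2-Q and H2-T genes, and the levels of single heavy chains are uncertain to that extent. Tapbp overlaps Zbtb22 on the same strand.

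Promoter windows from RefSeq (GRCm38.p6, 250 bases before to 50 after the RefSeq start) were matched for 8 of the 9 genes, with none for Tap2. RefSeq starts can differ from the GENCODE positions above. The windows of H2-D1, Tapbp, Psmb8 and Psmb9 lie wholly inside the GENCODE spans, so their matches are not upstream of the gene on that annotation. Those shown belong to the heavy chains and the light chain, whose ratio to each other differed between cell types, and to Tap1 and Psmb8, the transporter and proteasome genes of the block. Each reads 5′ to 3′ along its gene. Capitals mark matches on either strand to GGGATTCC, the core of a κB site, to GAAANNGAA, the core of an interferon response element, or to TTCNNNGAA, a gamma activated site.
H2-K1, chr17:34000298-34000597, minus strand: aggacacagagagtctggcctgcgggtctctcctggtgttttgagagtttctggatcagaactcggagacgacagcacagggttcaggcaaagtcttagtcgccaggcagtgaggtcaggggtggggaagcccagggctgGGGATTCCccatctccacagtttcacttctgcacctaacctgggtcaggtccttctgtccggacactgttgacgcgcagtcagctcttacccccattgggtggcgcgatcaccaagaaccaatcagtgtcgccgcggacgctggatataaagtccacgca
H2-D1, chr17:35262844-35263143, plus strand: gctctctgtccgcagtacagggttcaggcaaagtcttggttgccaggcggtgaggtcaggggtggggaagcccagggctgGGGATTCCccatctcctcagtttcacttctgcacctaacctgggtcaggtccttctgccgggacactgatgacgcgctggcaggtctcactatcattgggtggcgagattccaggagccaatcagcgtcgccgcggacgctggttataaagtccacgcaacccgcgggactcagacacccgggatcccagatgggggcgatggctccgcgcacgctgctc
B2m, chr2:122147437-122147736, plus strand: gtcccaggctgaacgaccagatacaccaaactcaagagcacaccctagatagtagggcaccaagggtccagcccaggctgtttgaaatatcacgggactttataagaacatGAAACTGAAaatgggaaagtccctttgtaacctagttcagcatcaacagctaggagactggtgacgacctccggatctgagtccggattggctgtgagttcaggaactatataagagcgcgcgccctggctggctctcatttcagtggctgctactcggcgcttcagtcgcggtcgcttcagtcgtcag
Tap1, chr17:34187306-34187605, plus strand: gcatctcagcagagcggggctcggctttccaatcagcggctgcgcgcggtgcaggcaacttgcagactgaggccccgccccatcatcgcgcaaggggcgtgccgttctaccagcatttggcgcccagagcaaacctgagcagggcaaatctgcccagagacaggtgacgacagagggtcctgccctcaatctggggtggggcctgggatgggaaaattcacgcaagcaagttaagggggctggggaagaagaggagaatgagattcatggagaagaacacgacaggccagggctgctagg
Psmb8, chr17:34197945-34198244, plus strand: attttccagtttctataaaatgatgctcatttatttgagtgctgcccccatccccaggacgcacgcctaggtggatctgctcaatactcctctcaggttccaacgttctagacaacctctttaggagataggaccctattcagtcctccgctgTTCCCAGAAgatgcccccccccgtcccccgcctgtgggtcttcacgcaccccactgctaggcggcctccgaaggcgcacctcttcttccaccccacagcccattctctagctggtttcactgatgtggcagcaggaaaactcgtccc

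GGGATTCC occurred in the windows of H2-K1 and H2-D1, and in 1.06% of all 32851 windows. The longest identical run between these heavy chain windows was 47 bases. GAAANNGAA occurred in the B2m window alone among the 8, and in 8.56% of all windows, and TTCNNNGAA in the Psmb8 window alone, and in 8.30% of all windows. The Tap1 window shares 275 bases with that of Psmb9, read from the other strand, and holds none of these letters. CCAAT occurred in 6 of the 8 windows and in 37.4% of all windows. No window printed here held more than 1 capital stretch, and these matches describe letters only. Other forms of these elements were not searched, so a window without a match is not shown to lack the element.

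The 9 genes were far lower in endocrine cells than in endothelial or immune cells of the same library. Their summed level in WT was 444 CPM in endocrine, 5885 CPM in endothelial and 5889 CPM in immune cells. In HFD it was 421, 4632 and 5542 CPM in the same order. The endothelial to endocrine ratio was thus 13.2 in WT (interval 12.8 to 13.7) and 11.0 in HFD (10.5 to 11.5), and the immune to endocrine ratio was 13.3 (12.6 to 13.9) and 13.2 (12.6 to 13.7). Insulin transcripts made up 58.8% of endocrine UMIs in WT and 55.7% in HFD, which lowers every other gene on this scale. With hormone and mitochondrial genes left out of the total, the endothelial to endocrine ratio was 4.63 in WT and 3.93 in HFD, and the immune to endocrine ratio 4.39 and 4.66. On that total all 9 genes were still lower in endocrine than in endothelial cells. Against immune cells the exceptions were Tapbp, with an immune to endocrine ratio of 1.23 (0.909 to 1.62) in WT and 0.978 (0.743 to 1.26) in HFD, and Tap2 in HFD, at 1.61 (0.849 to 2.78), whose intervals held 1.

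**Figure D1:**
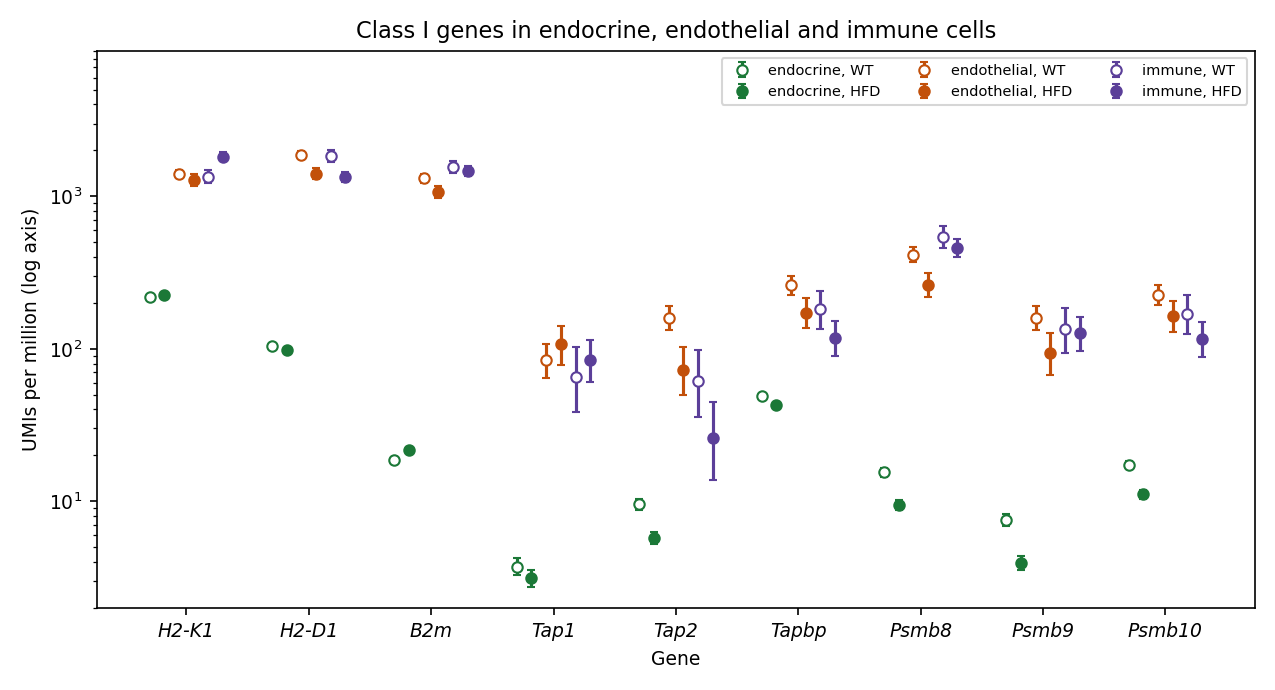
Level of each of the 9 genes in CPM (log axis) in endocrine, endothelial and immune cells, with open points for WT, filled points for HFD and bars for exact 95% counting intervals. On this scale, over all UMIs, endocrine cells are lowest for every gene, and the gap is widest for B2m.

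The gap was uneven across the pathway. H2-K1 was at 219 CPM in WT endocrine and 1397 CPM in WT endothelial cells, a ratio of 6.39 (5.99 to 6.80). H2-D1 went from 104 to 1873 CPM, a ratio of 17.9 (16.9 to 19.0). B2m, which every classical heavy chain needs for a stable fold, went from 18.5 to 1310 CPM, a ratio of 70.7 (64.9 to 76.9). In HFD the ratios were 5.68 for H2-K1, 14.3 for H2-D1 and 49.7 for B2m, in the same order of size. Tapbp had the smallest ratio, 5.36 (4.62 to 6.19) in WT and 4.03 (3.16 to 5.05) in HFD.

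The composition of the class I transcripts therefore differed between cell types, and such ratios do not depend on the scaling. There were 17.4 heavy chain UMIs of H2-K1 and H2-D1 for each B2m UMI in WT endocrine cells (16.5 to 18.5), against 2.5 (2.32 to 2.69) in endothelial and 2.04 (1.82 to 2.30) in immune cells. The HFD values were 15 (14.3 to 15.8), 2.51 (2.25 to 2.79) and 2.15 (1.97 to 2.35). All 3 measured endocrine types were on the endocrine side, with 17.2 in β-like, 21.2 in α-like and 24.3 in δ-like cells of WT. Ductal-like cells stood between, at 5.99 in WT and 7.81 in HFD, while fibroblast-like, pericyte-like and macrophage-like cells lay between 1.72 and 2.70 in both libraries.

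The balance of the heavy chains differed too. H2-K1 supplied 67.7% of the H2-K1 and H2-D1 UMIs in WT endocrine cells (67.0% to 68.3%) and 42.7% in WT endothelial cells (40.8% to 44.7%). In HFD it supplied 69.6% and 47.6%. α-like and δ-like cells were at 56.8% and 57.6% in WT, below β-like cells at 68.1%.

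The order of the endocrine types depended on the total. Over all UMIs, the summed level in WT was 434 CPM in β-like, 690 CPM in γ-like, 901 CPM in α-like and 1071 CPM in δ-like cells. In HFD it was 414, 535, 691 and 1011 CPM. Insulin made up 60.0% of β-like UMIs in WT but 0.631% of γ-like, 0.426% of α-like and 3.55% of δ-like UMIs. With insulin left out of the total, the WT levels were 1087 CPM in β-like, 694 CPM in γ-like, 905 CPM in α-like and 1110 CPM in δ-like cells, so β-like cells then lay above α-like and γ-like cells. With all islet hormones and mitochondrial genes left out, the α to β ratio was 1.06 (0.973 to 1.16) in WT and 0.950 (0.881 to 1.02) in HFD, and the δ to β ratio 1.21 (1.10 to 1.32) and 1.31 (1.19 to 1.43). On that total α-like and β-like cells were not told apart by counting error, and δ-like cells were above β-like cells in both libraries. Psmb8 differed most between δ-like and β-like cells in WT, with a ratio of 5.18 (3.56 to 7.29) over all UMIs and 2.54 (1.75 to 3.58) without hormone and mitochondrial genes. In HFD these ratios were 7.37 (4.97 to 10.6) and 3.95 (2.66 to 5.66).

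Shares of cells with a UMI followed the levels once depth was matched. With each cell thinned to 2000 UMIs, H2-K1 was detected in 38.5% of WT and 36.6% of HFD endocrine cells (94.4% and 89.2% unthinned). B2m was detected in 4.03% of endocrine cells in each library, against 91.4% and 91.6% of endothelial cells. The unthinned B2m shares in endocrine cells were 38.1% in WT and 18.5% in HFD, at median depths of 27423.5 and 11489 UMIs. Thinning left out 90 WT and 26 HFD endocrine cells, 8 and 41 endothelial cells, and 7 and 156 immune cells.

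Markers of other classes were measured in endocrine cells beside these levels. Pecam1, an endothelial adhesion molecule, was in WT endocrine cells at 0.0346% of its endothelial level and Ptprc, the pan-leukocyte CD45, at 0.0070% of its immune level. In HFD the values were 0.0675% and 0.0359%. These percentages rest on 21 Pecam1 UMIs and 1 Ptprc UMI in WT endocrine cells, and on 47 and 13 in HFD. B2m in endocrine cells stood at 1.42% of its endothelial level in WT and 2.01% in HFD, and the inducible proteasome subunits at 5.04% and 4.71%. All 8 endothelial markers were seen in endocrine cells, summing to 5.87 CPM (WT) and 5.81 CPM (HFD). Of the 34 immune markers, 21 were seen in WT and 26 in HFD, at 59.1 and 61.2 CPM, nearly all of it from C1qa and Cd79a. C1qa had 2893 UMIs in WT endocrine cells while its partner C1qb had 13. The other 32 immune markers summed to 1.64 and 3.60 CPM.

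The HFD to WT comparison asks whether the pathway differed between the islets of these pooled groups. In endocrine cells the summed level was 0.948 of the WT level (0.933 to 0.963), but the genes did not move together. Tap2 and all 3 inducible proteasome subunits were lower in HFD past the fold rule, and the heavy chains were nearly level. Thus 4 of 9 genes were lower and 0 higher, where 6.1% of 13631 genes were lower and 2.97% higher by the same rule. The median log2 ratio of the 9 was −0.26, beside −0.04 for all genes tested. In cells of at most 15000 UMIs, the upper limit in the study's methods, 7 of 9 were lower and the summed ratio was 0.650. There the median log2 ratio of all genes was −0.46, and 96.6% of the genes past the rule were lower. The share of all genes past the rule is not given at that setting, so the count of 7 has no background beside it.

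The inducible proteasome subunits replace constitutive ones in the catalytic core and shift which peptides are cut. Psmb8 was 15.4 CPM in WT against 9.43 CPM in HFD endocrine cells, a ratio of 0.611 (0.555 to 0.672). Psmb9 went from 7.54 to 3.94 CPM, a ratio of 0.522 (0.452 to 0.603). Psmb10 went from 17.4 to 11.1 CPM, a ratio of 0.641 (0.587 to 0.701). Their constitutive partners did not pass the fold rule. The ratio was 1.17 (1.13 to 1.21) for Psmb5, 1.03 (0.999 to 1.06) for Psmb6 and 0.941 (0.893 to 0.992) for Psmb7.

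Set against their partners, the inducible subunits made up 14.6% of the UMIs of the 6 catalytic genes in WT endocrine cells (14.1% to 15.1%) and 8.88% in HFD (8.51% to 9.26%). By pair, Psmb8 was 15.6% of Psmb8 and Psmb5 in WT and 8.79% in HFD, Psmb9 was 6.34% and 3.32% of Psmb9 and Psmb6, and Psmb10 was 29.7% and 22.4% of Psmb10 and Psmb7. These shares do not depend on the scaling. Endothelial cells held 58.5% inducible subunits in WT (55.4% to 61.5%) and 47.6% in HFD (43.1% to 52.2%). In pericyte-like cells, the mural cells of small vessels, the share was 56.2% in WT (52.9% to 59.5%) and 39.7% in HFD (32.3% to 47.3%). These cells came from cluster 22, with 38 WT and 12 HFD cells, and cluster 23, with 17 and 18. The naming scores of these clusters were 0.986 and 0.776 on the pericyte list and 0.659 and 0.645 on the endothelial list. The part of mixed cells and of the unequal clusters in the pericyte-like shares was not tested. Macrophage-like cells had 61.9% and 54.2%, δ-like cells 23.1% and 21.7% and α-like cells 20.4% and 15.3%, with overlapping intervals in each of these classes.

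**Figure D2:**
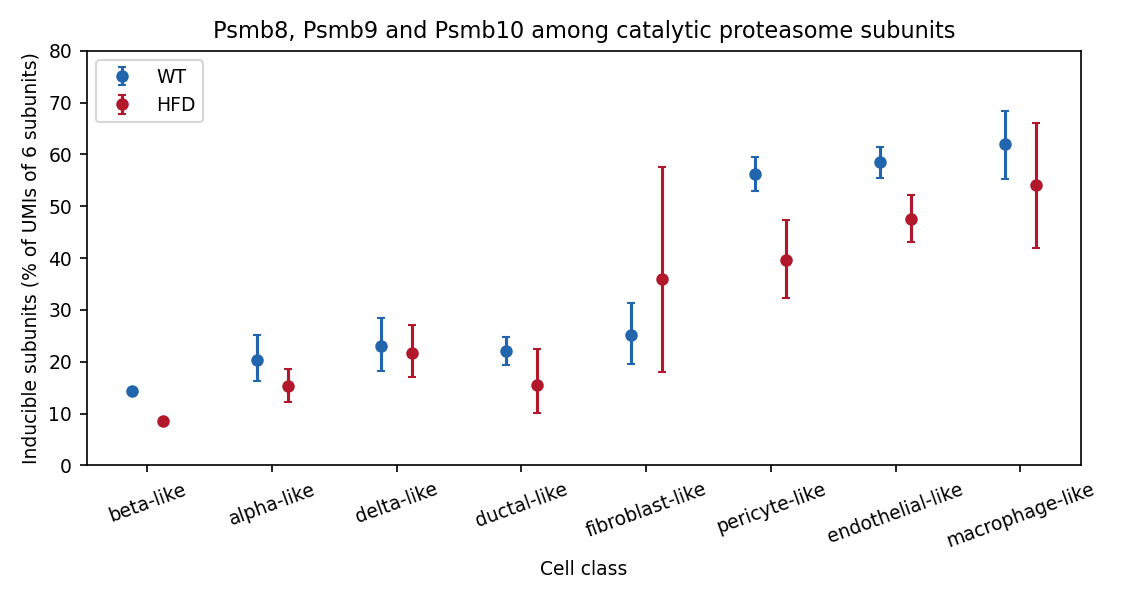
Share of Psmb8, Psmb9 and Psmb10 among the UMIs of the 6 catalytic proteasome subunits, in percent, by cell class and library, with exact 95% binomial intervals for counting error. The WT and HFD intervals are apart in β-like, pericyte-like and endothelial-like cells and overlap in the other classes.

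The transporter and its bridge to the heavy chain followed unequal courses. Tap2 was 9.55 CPM in WT against 5.75 CPM in HFD endocrine cells, a ratio of 0.602 (0.533 to 0.680). Its partner Tap1, whose product pairs with that of Tap2, was at 3.73 and 3.12 CPM, a ratio of 0.837 (0.699 to 1.0). Tapbp was at 48.9 and 42.9 CPM, a ratio of 0.877 (0.835 to 0.920). Only the Tap2 difference was past the fold rule.

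The peptide-binding molecule itself differed little in the pooled counts. H2-K1 was 219 CPM in WT against 225 CPM in HFD endocrine cells, a ratio of 1.03 (1.01 to 1.05), and H2-D1 at 104 and 98.3 CPM, a ratio of 0.941 (0.911 to 0.972). B2m was at 18.5 and 21.6 CPM, a ratio of 1.16 (1.08 to 1.25). None passed the fold rule, and the directions for H2-K1 and B2m depended on how cells were weighted. With every cell given equal weight the ratios were 0.962 for H2-K1 and 0.956 for B2m, and in cells of at most 15000 UMIs they were 0.753 and 0.692. With hormone and mitochondrial genes left out of the total, H2-K1 was at 0.979.

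**Figure D3:**
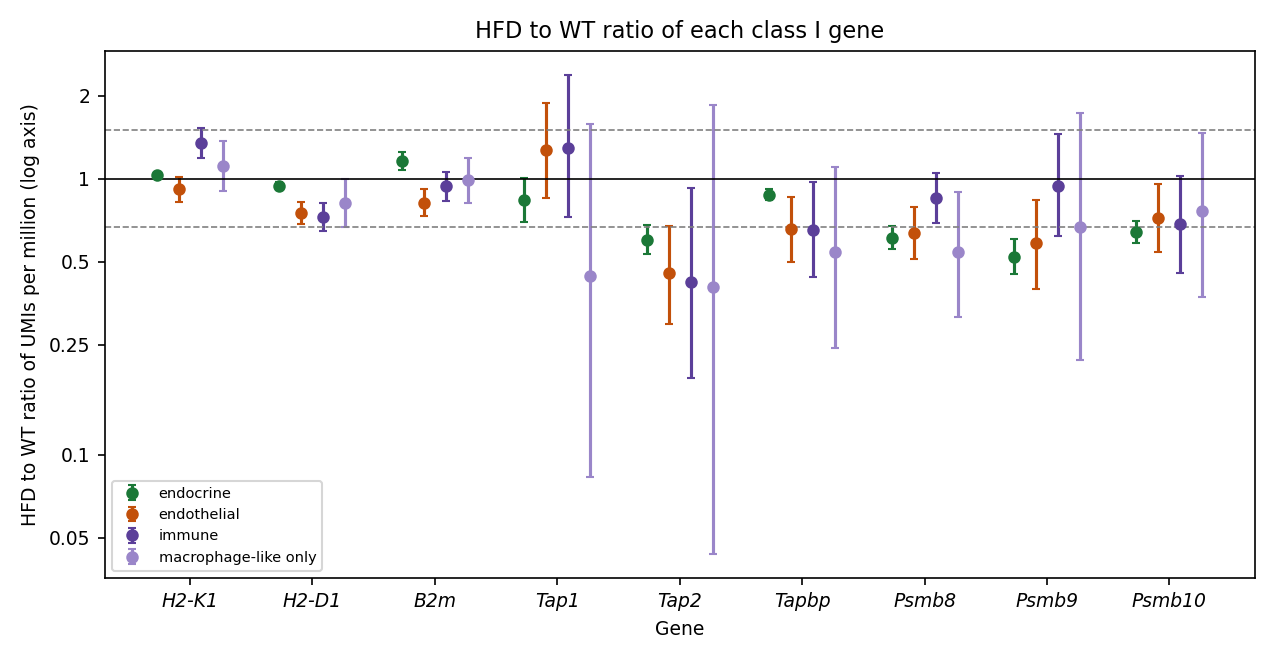
HFD to WT ratio of each gene (log axis) in endocrine, endothelial, all immune and macrophage-like cells, with exact 95% counting intervals, a solid line at 1 and dashed lines at the 1.5-fold limits. Psmb8, Psmb9, Psmb10 and Tap2 lie below the lower limit in endocrine cells, where H2-K1, H2-D1, B2m, Tap1 and Tapbp lie between the limits.

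Depth differed between the libraries, so β-like cells were also compared within bins of UMIs per cell. H2-K1 had an HFD to WT ratio below 1 in all 5 bins, from 0.834 to 0.913, although its pooled β-like ratio was 1.03. In both libraries H2-K1 was lower in deeper cells, from 308 CPM in the shallowest to 205 CPM in the deepest WT bin and from 257 to 187 CPM in HFD, and 948 WT but 146 HFD cells were in the deepest bin. B2m was between 0.582 and 0.869 in the 4 lower bins and at 1.60 (1.31 to 1.94) in the cells over 30000 UMIs. The inducible subunits together were at 0.820, 0.633, 0.333, 0.502 and 0.553 from the shallowest bin to the deepest. The median ratio of all genes tested was between 0.810 and 1.01 in these bins, and H2-K1 lay close to it. The intervals of the inducible subunits lay below that median in the bins over 10000 UMIs. In the shallowest bin the interval (0.444 to 1.56) held the median of 0.857, and from 5000 to 10000 UMIs the interval (0.400 to 1.06) held the median of 1.01. The constitutive Psmb5, Psmb6 and Psmb7 together were between 1.03 and 1.27. The inducible share of the 6 catalytic genes was lower in HFD in every bin, and the intervals were apart in all bins but the shallowest, where the shares were 15.8% (9.63% to 23.8%) and 12.8% (8.87% to 17.7%).

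**Figure D4:**
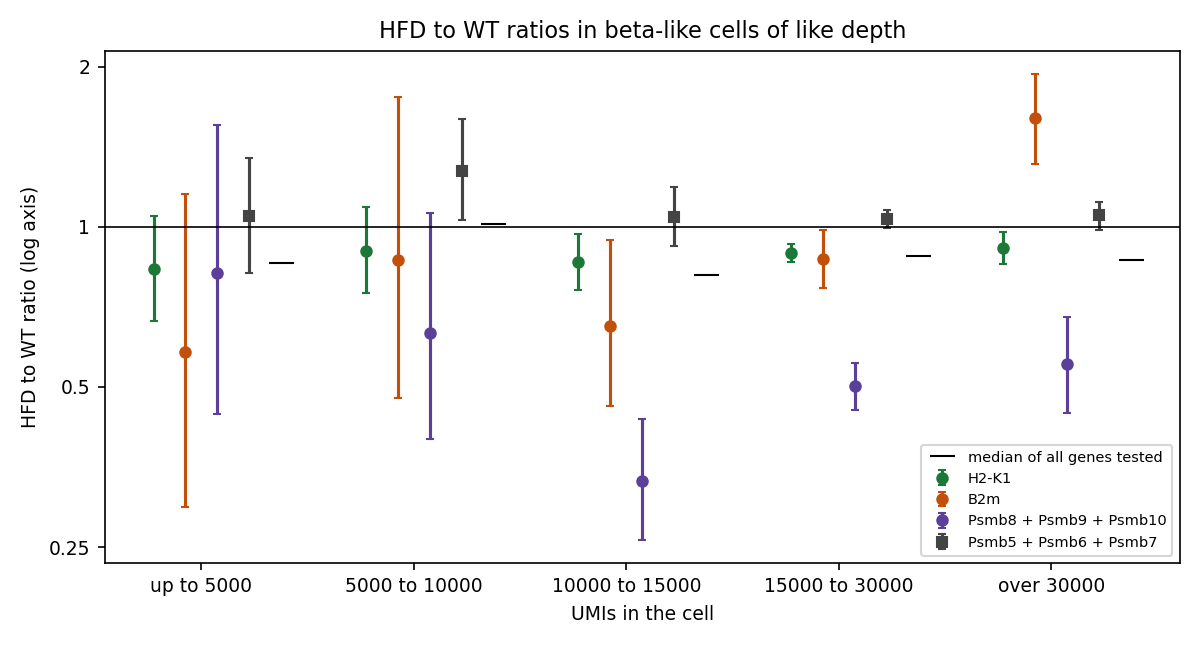
HFD to WT ratio (log axis) in β-like cells split by UMIs per cell, for H2-K1, B2m, the summed inducible subunits and the summed constitutive subunits, with exact 95% counting intervals and a dash for the median of all genes tested. The inducible subunits are below the constitutive ones in all 5 bins, and B2m is above 1 in the deepest bin alone.

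Within β-like cells, subclusters differed in class I level and were shared unequally by the libraries. Subcluster 4, with 361 WT and 193 HFD cells, was led by Ifit1, Mt2, Cxcl10, Mt1, Id2 and Rsad2, of which Ifit1, Cxcl10 and Rsad2 are interferon induced. It had a summed level of 532 CPM (WT) and 473 CPM (HFD) and an inducible subunit level of 62.3 and 31.5 CPM. Other subclusters were set apart by transcripts that belong to other cells, with Gcg, Sst, Pyy and Ppy, hormones of other islet cells, leading subcluster 0 and the acinar genes Try5, Ctrb1 and Clps leading subcluster 2. The part of such transcripts in the values was not tested. The large WT subclusters 0 and 1, of 871 and 544 WT cells, had summed levels of 410 and 424 CPM and inducible subunits at 33.4 and 34.5 CPM. The large HFD subclusters 2 and 3, of 2458 and 2235 HFD cells, had summed levels of 423 and 414 CPM and inducible subunits at 24.9 and 19.9 CPM. The HFD to WT ratio of the inducible subunits was 0.384 (0.268 to 0.569) in subcluster 2 and 0.621 (0.427 to 0.924) in 7, which held only 34 and 32 WT cells. It was 0.506 (0.371 to 0.675) in subcluster 4 and 0.762 (0.628 to 0.918) in 1, but 1.60 (1.22 to 2.07) in subcluster 0, where the 95 HFD cells had a median of 11438 UMIs and the WT cells 38569. With subcluster 4 left out, an alternative added after the data were seen, the endocrine ratio of the inducible subunits was 0.672 (0.631 to 0.716), and Psmb10, at 0.742, no longer passed the fold rule.

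Among the interferon induced genes in endocrine cells, 23 of 26 had enough UMIs, and of these 11 were lower in HFD and 2 higher, with a median log2 ratio of −0.62. Cxcl10, a chemokine that draws T cells, had the lowest ratio, going from 12.3 CPM in WT to 2.93 CPM in HFD, a ratio of 0.238 (0.205 to 0.275). Ifit1, an antiviral RNA sensor, went from 16.2 to 6.77 CPM, a ratio of 0.418 (0.376 to 0.464). Bst2, the tetherin that holds viruses at the cell surface, was higher, at 3.46 and 5.70 CPM, a ratio of 1.65 (1.40 to 1.94), as was the GTPase Iigp1, at 0.541 and 1.03 CPM, a ratio of 1.91 (1.27 to 2.92). Summed over the list, the ratio was 0.808 with all endocrine cells and 1.14 without subcluster 4, so the direction of the sum turned when that subcluster was left out. Within subcluster 4 the list was at 362 CPM in 361 WT cells and 132 CPM in 193 HFD cells. A rise of the ratio without it therefore follows from the choice of cells. Among the regulators of class I transcription, Irf1 was lower, with a ratio of 0.648 (0.610 to 0.687).

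Of the 6 peptide loading genes, among them the chaperones Calr and Canx, 0 passed the fold rule in either direction, and likewise 0 of 12 constitutive proteasome genes and activators and 0 of 7 interferon receptor genes. Nearest to the limits were the chaperone Hspa5, which went from 601 to 889 CPM, a ratio of 1.48, and the proteasome activators Psme1, at 0.729 (0.684 to 0.776), and Psme2, at 0.727 (0.693 to 0.762). Of 12 other class I heavy chains, 9 had enough UMIs and 4 were lower, with H2-T23, the mouse Qa-1 gene, at 0.579 (0.512 to 0.654) and H2-Q6 at 0.585 (0.394 to 0.861). Of 6 class II genes, 5 had enough UMIs and 4 were higher, led by H2-Ab1 at 3.70 (2.26 to 6.33) and the invariant chain Cd74 at 2.94 (2.35 to 3.70), Cd74 going from 1.56 to 4.58 CPM. Class II genes mark antigen-presenting immune cells, and the immune markers without C1qa and Cd79a had 106 UMIs in WT and 290 in HFD endocrine cells. Their part in the B2m and Bst2 ratios was not tested. In endocrine cells with no UMI of these or the endothelial markers, B2m was at 1.13 and the inducible genes Psmb8, Psmb9 and Psmb10 at 0.632, 0.499 and 0.668, so that Psmb10 just missed the fold limit. That choice kept 80.7% of WT and 90.7% of HFD endocrine cells. A deeper cell is more likely to hold a marker UMI, and the part of depth in these ratios was not tested.

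In endothelial cells the summed level went from 5885 to 4632 CPM, a ratio of 0.787 (0.747 to 0.830). Tap2, Tapbp, Psmb8 and Psmb9 were lower past the fold rule, so that 4 of 9 genes were lower and 0 higher, where 5.99% of 6473 genes were lower and 6.66% higher. Tap2 was at 160 and 72.7 CPM, a ratio of 0.455 (0.298 to 0.677). Psmb8 was at 414 and 264 CPM, a ratio of 0.637 (0.510 to 0.791). Psmb9 was at 160 and 93.1 CPM, a ratio of 0.583 (0.399 to 0.838). Tapbp was at 262 and 173 CPM, a ratio of 0.659 (0.499 to 0.862). H2-D1 and B2m were lower without reaching the limit, at 0.752 (0.683 to 0.827) and 0.819 (0.732 to 0.915), while the intervals of H2-K1 (0.915) and Tap1 (1.27) held 1.

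The endothelial clusters were not the same in both libraries. Cluster 7 held 57 WT cells and 1 HFD cell, and cluster 25 held 1 WT and 40 HFD cells. In the shared cluster 20, with 27 WT and 44 HFD cells, the summed ratio was 0.787 (0.701 to 0.883) and that of the inducible subunits 0.565 (0.398 to 0.793). In cluster 21, with 16 and 33 cells, they were 0.754 (0.665 to 0.854) and 0.902 (0.593 to 1.37). With clusters 7 and 25 left out, also added after the data were seen, the summed ratio was 0.929 (0.859 to 1.0) and 1 of 9 genes passed the fold rule. The share of all genes past the rule is not given for that set. It also held cluster 24, with 12 WT and 6 HFD cells, led by Ccl21a, Fabp4, Selp, Mmrn1 and Lyve1. The naming score of cluster 24 was 0.345 on the endothelial list and 0.311 on the β list. With doublet barcodes kept, a cluster led by Ccl21a, Ins1 and Ins2, of 17 WT and 22 HFD cells, was named β. The part of mixed cells in cluster 24 was not tested. WT cells had a summed level of 2975 CPM in cluster 24, beside 6546 and 6904 CPM in clusters 20 and 21. The part of cluster 24 in the ratio of 0.929, which is above those of clusters 20 and 21, was not tested. Haemoglobin transcripts, which come from red cells, were 872 CPM in WT against 1738 CPM in HFD endothelial cells, and their part in these ratios was not tested.

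Of the interferon induced genes 25 were measured in endothelial cells, of which 3 were higher in HFD and 0 lower, with a median log2 ratio of 0.19, where 6.66% of all genes were higher and 5.99% lower. Without the single-library clusters 7 and 25, 0 of 21 were higher and 1 lower, with a median of 0.00. The difference from endocrine cells was not tested. Iigp1 had a ratio of 1.93 (1.60 to 2.32) and Cxcl10 of 2.12 (1.21 to 3.74), from 33.3 to 70.4 CPM. Of the regulators, Irf1 was lower, at 0.550 (0.438 to 0.687), and the NF-κB subunits Rela, at 2.29 (1.66 to 3.17), and Nfkb1, at 1.73 (1.27 to 2.35), were higher. The proteasome activator Psme2 was lower, at 0.658 (0.485 to 0.883), the only one of 12 constitutive proteasome genes and activators past the rule. Of 12 other heavy chains, 7 were measured and 4 were lower, with H2-Q6 at 0.504 and H2-T23 at 0.526. Among the receptors Ifnar2 was lower, at 0.628, and the kinase Jak2 higher, at 1.86 with an interval from 1.01. None of the 4 class II genes measured and none of the 6 loading genes passed.

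**Figure D5:**
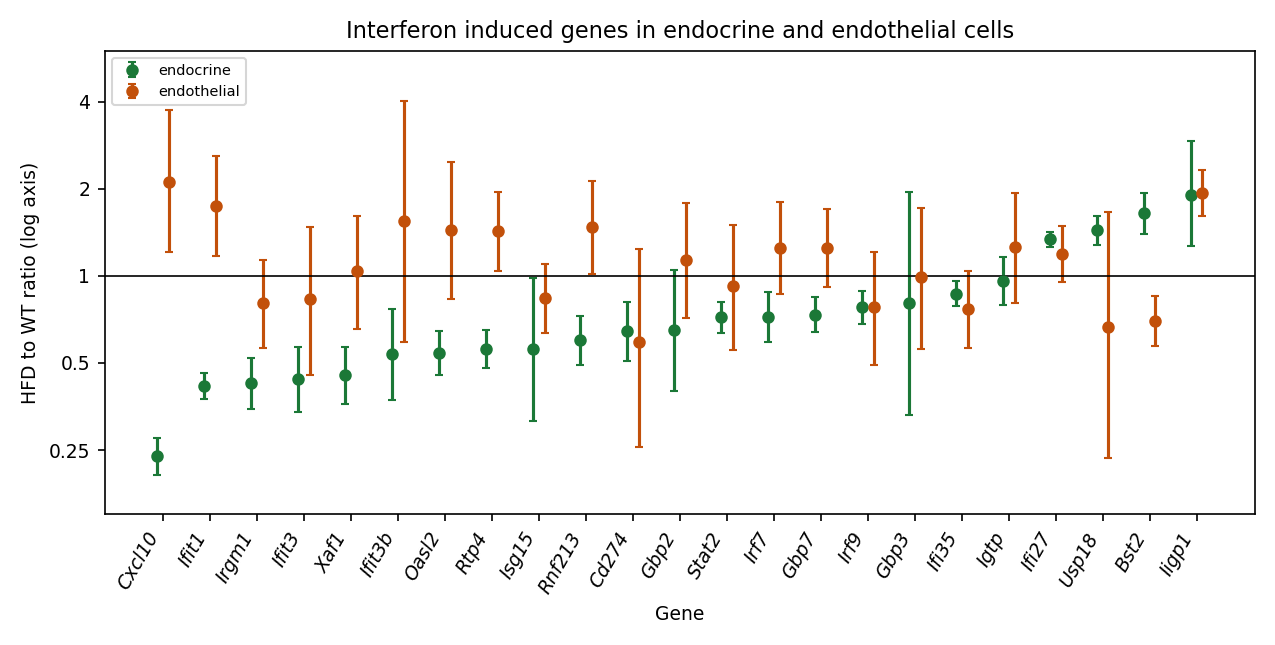
HFD to WT ratio (log axis) of the interferon induced genes with at least 20 UMIs, ordered by their endocrine ratio, in endocrine and endothelial cells, with exact 95% counting intervals. Cxcl10 and Ifit1 are below 1 in endocrine cells and above 1 in endothelial cells, and Iigp1 is above 1 in both.

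In immune cells the summed level went from 5889 to 5542 CPM, a ratio of 0.941 with an interval (0.885 to 1.0) that held 1. Tap2 (0.423) and Tapbp (0.653) were lower past the rule, 2 of 9 genes, where 18.2% of 3799 genes were lower and 17.4% higher. H2-K1 was 1347 CPM in WT against 1817 CPM in HFD, a ratio of 1.35 (1.19 to 1.53). H2-D1 was at 1833 and 1332 CPM, a ratio of 0.727 (0.646 to 0.817). These sums set a WT pool that was mostly macrophage-like against an HFD pool that was mostly T-like, and in HFD T-like cells H2-K1 was at 1736 CPM and H2-D1 at 1147 CPM. Diet and cell composition cannot be told apart in them. Between 40 and 45 macrophage-like cells alone, H2-K1 was at 1328 and 1481 CPM, a ratio of 1.11 (0.901 to 1.37), and H2-D1 at 0.820 (0.670 to 0.999). Psmb8 was at 400 and 218 CPM there, a ratio of 0.544 (0.316 to 0.895), and was the 1 gene past the rule among the 7 with enough UMIs. The background was 5.88% of 1514 genes lower and 5.81% higher. The summed macrophage-like ratio was 0.895 (0.804 to 0.995). Of the interferon induced genes 21 were measured over all immune cells, with 13 lower, 0 higher and a median log2 ratio of −1.30, and all 5 class II genes measured were lower. In macrophage-like cells alone 12 interferon induced genes were measured, with 1 higher and 2 lower, and 0 of 5 class II genes passed the rule.

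Over 8 cell classes in both libraries, which gave 16 points, the genes whose level most resembled the summed class I level were Arpc3 (Pearson r 0.975), Hspa8 (0.973), Bst2 (0.964), Skil (0.962) and Sat1 (0.961), among 13354 genes compared on log2(CPM + 1). The points share their libraries and the insulin content that lowers β-like values, so this is a description. Of the 9 genes themselves, H2-D1 followed the sum of the other 8 most closely (r 0.994) and Tap2 least (0.865). Over all UMIs, insulin included, all 9 had their lowest values of the 16 points in β-like cells, while the highest were in endothelial-like cells of WT for H2-D1, Tap2, Tapbp, Psmb8, Psmb9 and Psmb10, in macrophage-like cells for H2-K1 and B2m, and in pericyte-like cells of HFD for Tap1.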

How the data were processed

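UMI counts per gene and barcode were deposited for 1 WT and 1 HFD library. The authors made these counts from 10x 3′ libraries with Cell Ranger 3.0.2 on mm10, per the submitters' processing notes. Total UMIs were 73843674 in WT and 94375138 in HFD. Barcodes with at least 500 genes and at most 20% mitochondrial UMIs were kept, 2600 WT and 7297 HFD. The doublet caller Scrublet was run on all 3895 WT and 8951 HFD barcodes. It marked 1 and 0 of these by its own threshold, so it had not worked. The 121 and 641 of highest score among all barcodes were left out instead. Cells were clustered with Leiden (scanpy 1.11.5, igraph 0.11.9) without the hormone, class I, class II and interferon list genes, and clusters were named from marker lists. The naming score was set, and the erythroid list dropped, after the clusters were seen. A cluster led by S100a9, S100a8, Cd209a, Napsa and Mgl2 (8 WT, 24 HFD cells) was counted as immune without a type. An unnamed cluster of 11 WT and 5 HFD cells, led by Calca, Gata3, Gm20186, Il5 and Ccl1, was not counted as immune. Its highest naming score was for T cells, at 0.230, so the immune class may lack some immune cells.

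UMIs were summed per class and library (numpy 2.4.6, scipy 1.17.1). Ratios have exact conditional binomial intervals, levels exact Poisson intervals and shares exact Clopper-Pearson intervals, at 95%. The ratios were tested on simulated data. With 1 library a group, no p-value was computed. All 9 genes are named, together with, per list, the 2 highest and 2 lowest ratios past the fold rule in endocrine and in endothelial cells, and the 5 genes of most similar pattern. One result that this rule names is not reported here. Other genes were named as partners or markers. Alternatives changed the filters, doublets, clustering, weighting and total, or used edgeR 4.0.16 (R 4.3.3) for TMM scaling alone. The members and lists were chosen with earlier results of these data known. The ratios of heavy chain to B2m and of H2-K1 to H2-D1, and the alternatives that left out single-library clusters, subcluster 4, insulin from the total, or C1qa and Cd79a from the immune markers, were added after the data were seen, as were the alternatives gene by gene and by endocrine type.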

Additional observations from a re-analysis of the deposited data

Results flagged for a closer look

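Some genes had HFD to WT ratios on opposite sides of 1 in 2 cell classes, each with a counting interval that left out 1. With 1 library in each group the difference between the classes was not tested. B2m was at 1.16 in endocrine and 0.819 in endothelial cells. Its endocrine direction depended on the setting, with ratios from 0.692 to 1.21. In β-like cells B2m was below 1 in every depth bin but the deepest. Cxcl10 was at 0.238 in endocrine and 2.12 in endothelial cells, and Ifit1 at 0.418 and 1.74. Nfkb1 was at 0.883 in endocrine and 1.73 in endothelial cells. Bst2 went the other way, at 1.65 in endocrine and 0.700 in endothelial cells. Without the endothelial clusters of a single library, 0 of 21 interferon induced genes were higher.

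The barcodes left out by the filters on genes and mitochondrial UMIs, 1295 in WT and 1654 in HFD, entered no comparison. Their summed class I level was 405 CPM in WT and 1059 CPM in HFD, with intervals of 378 to 434 and 1010 to 1111 CPM.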

How the results depend on the processing

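No paired analysis was possible because each group has 1 library, and for the same reason no replicate could be left out. None of the alternatives took a summed HFD to WT ratio above 1 or a ratio to endocrine cells below 1. Which of endothelial and immune cells was higher in WT did depend on the setting. The endocrine summed HFD to WT ratio was 0.650 in cells of at most 15000 UMIs, 0.890 with cells weighted equally, 0.902 with hormone and mitochondrial genes left out of the total, 0.928 in cells without markers of other classes and 0.986 with TMM scaling. The endothelial one was 0.683 at most 15000 UMIs, 0.736 with doublet barcodes kept, 0.741 with equal weights, 0.711 without other markers and 0.929 without single-library clusters. The immune one was 0.836 with at least 1000 genes per cell. The count past the fold rule was 7 of 9 in endocrine cells of at most 15000 UMIs, 1 in endothelial cells without single-library clusters, and 1 in immune cells with doublet barcodes kept, with equal weights or in macrophage-like cells alone. Apart from macrophage-like cells, the share of all genes past the rule is not given at these settings, so the counts have no background beside them.

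The endothelial to endocrine ratio in WT was 9.66 at most 15000 UMIs, 14.7 with doublet barcodes kept, 4.63 without hormone and mitochondrial genes, 14.1 without other markers, 13.9 with C1qa and Cd79a not counted among those, and 11.4 without single-library clusters. In HFD it was 10.2, 11.5 and 3.93 under the first 3 of these. The immune to endocrine ratio in WT was 8.39 at most 15000 UMIs, 11.7 with equal weights and 4.39 without hormone and mitochondrial genes. In HFD it was 12.1, 12.3 and 4.66 under these, 11.6 with at least 1000 genes and 12.6 for macrophage-like cells. The inducible share in endocrine cells of at most 15000 UMIs was 20.4% in WT and 9.49% in HFD. The cause of these shifts was not tested.

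The share of endocrine genes past the rule that were lower in HFD was 67.3%, but 96.6% at most 15000 UMIs, where the median log2 ratio of all genes moved from −0.04 to −0.46, and 81.5% with equal weights, where it was −0.15. Over the main setting and the alternatives planned for the sums, the endocrine ratios ran from 0.331 to 0.677 for Psmb8, 0.312 to 0.543 for Psmb9, 0.373 to 0.667 for Psmb10 and 0.340 to 0.626 for Tap2. Psmb8 missed the fold limit with equal weights, at 0.677, and the settings added later took Psmb10 past it, to 0.668 with C1qa and Cd79a not counted and 0.742 without subcluster 4. In endothelial cells without single-library clusters 32.6% of the genes past the rule were lower, against 47.4% with all clusters.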

Other observations

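Class I levels were also read in cell classes outside the 3 compared above. Pericyte-like cells had a summed level of 5173 CPM in WT and 4541 CPM in HFD, with Psmb9 at a ratio of 0.444 (0.207 to 0.851) and Psmb10 at 0.406 (0.211 to 0.717). Fibroblast-like cells had 2614 and 2781 CPM, and ductal-like cells 1930 and 1848 CPM with the inducible subunits at a ratio of 0.565 (0.350 to 0.873). Acinar-like cells, 10 in WT and 4 in HFD, had 257 CPM (176 to 363) and 268 CPM (150 to 442) from 32 and 15 UMIs, and the HFD interval held the endocrine level. Of these UMIs 24 and 11 were of Psmb10, at 193 and 197 CPM.

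The 8 dendritic-like cells, all from HFD, had a summed level of 18655 CPM (16646 to 20841). That they all came from HFD held for the main clustering. At the alternative Leiden resolution of 2, clusters of 4 WT and 10 HFD cells and of 2 WT and 9 HFD cells were named dendritic. T-like cells of HFD had 4770 CPM (4528 to 5021) over 158 cells. B-like cells, 6 and 9, had 4829 and 5309 CPM with overlapping intervals.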
